A study of Mus musculus and Homo sapiens with 34 samples.

Results

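MC38 and CT26 spheroids responded differently to a decellularised matrix, and the comparison set out below measures that difference gene by gene. It used all 22 mouse libraries of the 34 libraries in the series. For each gene the log2 change with SIS ECM in CT26 was subtracted from the log2 change with SIS ECM in MC38, and this value is called the difference in response. A negative value means that expression with SIS ECM was lower, relative to cells alone, in MC38 than in CT26. Of 14080 genes tested, 3740 (26.6%) had a difference in response with an adjusted p under 0.05 (edgeR's quasi-likelihood test, adjusted by Benjamini and Hochberg's method). In 1794 of them (12.7% of genes tested) the response was higher in MC38, and in 1946 (13.8%) it was lower.

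CT26 and MC38 are transplantable mouse colorectal carcinoma lines from different inbred strains. Both were kept in RPMI medium with serum. Spheroids formed in low-adhesion round-bottom plates, either with SIS ECM or as cells alone (labelled CA), and were collected on day 7. SIS ECM is extracellular matrix from small intestinal submucosa, and nothing else was added to either culture, per the labels. CT26 had 6 libraries without and 6 with SIS ECM. MC38 had 5 without (numbered 1 to 5) and 5 with (1, 3, 4, 5 and 6). Each library came from a tube of 10 pooled spheroids. No label tells if a group's libraries came from separate cultures, so each p-value reflects only how these libraries vary, and that variation may be technical.

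Library totals were 15826190 to 24196115 counts. The mouse libraries fell into number ranges, 1 to 3 and 4 to 6, that the labels do not explain. In CT26 the share of mitochondrially encoded counts was 4.41% in the first range and 8.07% in the second. In MC38 it was 4.15% and 6.28%. The fit therefore had a term for the range within each line, and range-specific values come from separate fits to each range. Of 30 epithelial and intestinal markers, 13 passed the filter on low counts, and Epcam, Cldn3, Cldn4 and Tff3 had 0 counts in every library of both lines. Others were expressed, given here in CPM (counts scaled to a common library total) for cells alone. Tjp1 was at 198.8 to 277.7 in CT26 and 105.0 to 138.4 in MC38. Krt20 was at 36.98 to 52.91 in CT26 and 0 in MC38, and Sox9 at 9.62 to 13.11 in CT26 and 99.79 to 118.3 in MC38. Of the 13, 0 had a difference in response that passed an adjusted p of 0.05 (edgeR).

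Tumour cells meet matrix through integrins and other receptors, and they answer by changing their own matrix production, the proteases that cut it and the signals that follow adhesion. In spheroids, oxygen and nutrients fall toward the core, so genes induced by hypoxia and the glycolytic enzymes read the local supply. Interferon-stimulated genes form a separate program: interferon binding activates transcription factors that bind a promoter element called ISRE and switch on antiviral effectors and antigen presentation.

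Promoter windows are shown for members of 3 gene lists whose responses differed, because interferon and hypoxia signalling act through known promoter elements and metalloproteinase promoters are known to hold AP-1 elements. Sequences are from RefSeq (GRCm38.p6), from windows reaching 250 bases before to 50 after an annotated start. Capitals mark the matches on either strand, and overlapping matches are joined. The ISRE core was searched as GAAA, any 2 bases and GAAA again, and windows are printed for the 5 genes with the largest difference in response among members that passed and had a match within 150 bases before the start. The same choice gave 3 genes for each of the next elements. They lie at chr5:120777700-120777759 (Oas3), chr12:26456538-26456597 (Rsad2), chr4:156200850-156200921 (Isg15) and chr5:120907526-120907570 (Oas1a) on the minus strand, and chr19:34583382-34583441 (Ifit3) on the plus strand. Genes on some chromosomes were left out of the choice, Bst2 (−1.54) among them, and the matches of Ifit3b (−1.20) lay farther from the start.
Oas3: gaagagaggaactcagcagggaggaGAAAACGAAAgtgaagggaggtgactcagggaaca
Rsad2: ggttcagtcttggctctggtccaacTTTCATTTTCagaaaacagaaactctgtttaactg
Isg15: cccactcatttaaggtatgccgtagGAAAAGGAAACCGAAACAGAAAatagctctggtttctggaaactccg
Oas1a: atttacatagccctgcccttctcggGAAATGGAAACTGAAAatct
Ifit3: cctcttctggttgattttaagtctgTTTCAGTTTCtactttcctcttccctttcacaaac

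The AP-1 element, searched as TGANTCA, lay in the windows of 3 neighbouring metalloproteinase genes on the plus strand of chromosome 9, at chr9:7272454-7272510 (Mmp13), chr9:7502254-7502310 (Mmp10) and chr9:7445751-7445807 (Mmp3). Mmp12 on the same strand of chromosome 9 (0.013) and Plaur (0.12) also had a match, and their differences did not pass.
Mmp13: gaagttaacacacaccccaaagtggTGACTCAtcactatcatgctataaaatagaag
Mmp10: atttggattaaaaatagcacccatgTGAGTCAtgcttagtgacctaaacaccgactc
Mmp3: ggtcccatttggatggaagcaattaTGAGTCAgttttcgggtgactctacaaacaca

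The core of the hypoxia response element, searched as ACGTG and printed where it is not part of CACGTG, lay at chr4:119108684-119108738 (Slc2a1), chr11:54100821-54100875 (P4ha2) and chr4:43506983-43507025 (Car9), all on the plus strand. Ankrd37 (−1.94), the lowest difference of the hypoxia genes, had a match 6 bases before its start. It was left out by its chromosome, so the printed windows are not those of the largest differences.
Slc2a1: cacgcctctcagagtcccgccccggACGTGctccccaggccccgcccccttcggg
P4ha2: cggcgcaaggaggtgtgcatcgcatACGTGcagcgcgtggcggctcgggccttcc
Car9: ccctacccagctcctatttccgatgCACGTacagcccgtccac

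The ISRE core was in 18 of 35 windows of interferon-stimulated genes (51.4%), against 3.44% of all 32851 windows. The AP-1 element was in 5 of 17 windows of matrix proteases and inhibitors (29.4%, against 7.81%), and the hypoxia core in 15 of 24 windows of hypoxia genes (62.5%, against 19.6%). The NF-kB element (GGGA, any base, TTTCC) was in 7 of 21 windows of NF-kB genes (33.3%, against 0.411%). The sterol regulatory element (ATCA, then CCCCAC) was in 0 of 20 windows of cholesterol synthesis genes, against 0.0913% of all windows. A match is a description of the letters in the window, not of a bound site.

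Most differences came from genes that changed in one line and not in the other. Of the 3740 genes, 1946 (52.0%) had an own change below 0.05 only in CT26 (955 up, 991 down), and 786 (21.0%) only in MC38 (356 up, 430 down). Another 437 (11.7%) changed in both lines in opposite directions. Of those, 197 rose in MC38 and fell in CT26, and 240 did the reverse. In 95 genes (2.54%) both lines changed in the same direction by unequal amounts, and in 476 neither own change passed. The own changes share their libraries with the difference, so these counts describe it and do not test it again. The same holds for the counts of own changes given for the lists below. Those counts have no share over all genes tested beside them, so they are not compared with the general rate.

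**Figure D1:**
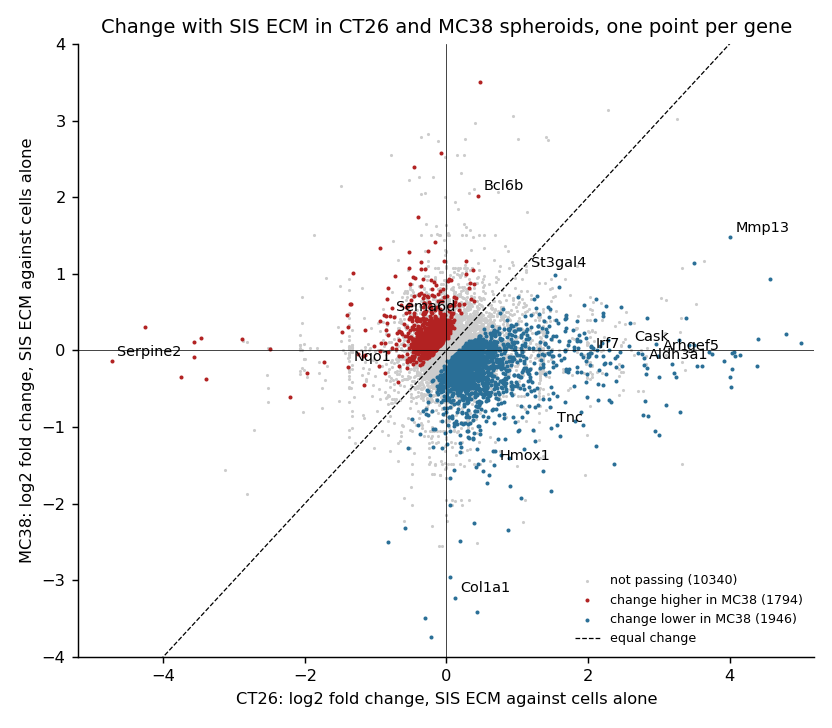
Log2 fold change with SIS ECM in CT26 (horizontal axis) and in MC38 (vertical axis), one point per gene tested, from the fit to all 22 libraries. Red points are the 1794 genes whose response was higher in MC38 and blue points the 1946 whose response was lower. Points on the dashed line changed equally, 7 genes lie outside the axes, and blue points extend to the right at CT26 rises that MC38 lacks. In Serpine2 every CT26 library with SIS ECM was at 0 counts, so its horizontal position depends on the fit.

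The differences were modest in size, with a median absolute value of 0.42 on the log2 scale among the 3740 genes and a median of −0.02 over all genes tested. At least 2-fold differences occurred in 504 genes, of which 430 were lower and 74 higher in MC38. When only genes with a mean of at least 1 CPM (counts scaled to a common library total) in each line were tested, a choice made after the data were seen, 3650 of 10769 genes passed and 219 differed by at least 2-fold. With the replicate number as a block in place of the range term, 1772 genes passed, 1767 of them among the 3740. The difference in response itself differed between the number ranges in 2268 genes (16.1%), 837 of which were among the 3740. Of the 3740 genes, 3597 had the same sign in both ranges, 2659 also passed in libraries 1 to 3 and 1380 in libraries 4 to 6. Each range is part of the 22 libraries behind the 3740 calls, so these counts describe the calls and do not repeat them independently. Of all genes tested, 4112 of 14329 passed in libraries 1 to 3. In libraries 4 to 6 it was 2001 of 14275 (824 higher and 1177 lower), and with the block 1772 of 14080 (739 and 1033). List counts per range or with the block are to be read beside these.

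Over all 22 libraries, the interferon-stimulated genes had the lowest median difference among lists with at least 3 tested members, −0.85. In libraries 1 to 3 alone, hypoxia genes, collagens and matrix glycoproteins, glycolysis genes and MHC class I presentation were lower. Collagen crosslinking and hydroxylation was lower there by little (−0.7, against −0.6994). With no range term the collagens and matrix glycoproteins were lower (−0.94). All 40 interferon-stimulated genes were tested: 36 had a lower response in MC38, 2 a higher one and 2 did not pass. In CT26 38 members rose and 1 fell (median change 0.97). The MC38 change had a median of 0.14, with 11 up and 1 down. The pattern was present in both number ranges, with a median of −0.70 in libraries 1 to 3, where 30 members passed as lower, and −0.998 in libraries 4 to 6, where 33 did. The difference varied between the ranges in 6 of the 40.

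Irf7 encodes the transcription factor that amplifies interferon production (chromosome 7, 141262706–141266481, minus strand). Its level in CT26 ranged from 1.49 to 3.92 CPM without SIS ECM (median 2.28) and from 4.61 to 17.9 CPM with it (median 8.92). In MC38 it was 23.4, 16.4, 18.3, 20.9 and 21.5 CPM without and 18.4, 20.02, 18.7, 20.7 and 21.6 CPM with SIS ECM. The CT26 groups did not overlap and the MC38 groups did, and every MC38 library lay above all CT26 libraries without SIS ECM. The difference in response of Irf7 was −2.06 ± 0.22 (SE; edgeR, adjusted p = 2.6e-07), from −0.04 in MC38 and 2.03 in CT26. Irf7 overlaps Phrf1 on the other strand, and since no source says whether counting used strand, their reads may not be told apart.

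Oas3, a synthetase of the messenger that activates RNase L (chromosome 5, 120753098–120777661, minus strand), behaved alike. CT26 libraries held 1.56 to 4.48 CPM of Oas3 (median 3.36) without and 5.41 to 17.8 CPM (median 9.04) with SIS ECM. MC38 libraries held 27.9, 20.1, 19.6, 22.5 and 22.8 CPM without and 19.97, 18.8, 25.6, 22.3 and 20.9 CPM with it. Only the CT26 groups were apart, and the difference for Oas3 was −1.75 ± 0.18 (edgeR, adjusted p = 1.3e-07). The antiviral GTPase Mx1 rested on few counts in CT26, 4 to 12 per library without and 20 to 40 with SIS ECM, against 583 to 833 and 682 to 827 in MC38. Its difference was −1.73 ± 0.23 (edgeR, adjusted p = 7.9e-06).

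Other members named here also stood higher in MC38 before SIS ECM, a difference in level that was not tested. The ubiquitin-like modifier Isg15 was at 36.3 CPM in MC38 cells alone and 3.43 CPM in CT26 cells alone (group means), with a difference in response of −1.15. In the same order the tetherin Bst2 was at 60.9 and 14.7 CPM (−1.54). The deISGylase Usp18 was at 9.99 and 3.81 CPM (−1.68). The members with the opposite sign were Ifit2 (0.45), which fell in CT26 by 0.47 on the log2 scale, and the kinase Eif2ak2 (0.23, adjusted p = 0.021 in edgeR, and 0.15 with the block). Samd9l and Iigp1 did not pass. Ifit3 and Ifit3b, like Oas1a and Oas1g, are near-identical copies between which reads can be split, so their single values are uncertain.

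Leukocyte markers were also higher in sum with SIS ECM in CT26. The summed level of 10 leukocyte markers was 11.2 to 15.2 CPM in CT26 cells alone and 16.2 to 29.7 CPM with SIS ECM, against 2.71 to 4.38 and 2.57 to 4.20 CPM in MC38. Most of it was Cd14 and Cd68, the T cell marker Cd3e and the adaptor Tyrobp were at 0 counts in all 4 groups, and 2 of the 10 markers passed the filter. Cd14 had a difference of −0.62 and Cd68 of −0.87 (adjusted p = 0.018 and 0.044 in edgeR, 0.098 and 0.22 with the block). For Cd68 it was −1.23 in libraries 1 to 3 and −0.10 in libraries 4 to 6, and for Cd14 −0.75 and −0.51. The interferon median was not smaller in libraries 4 to 6. The call on Cd68 was lost in 15 of 22 fits that left out 1 library, and that on Cd14 without MC38 cells-alone library 5. Their part in the interferon result was not tested. In pooled spheroids fewer cells of a kind and less RNA per cell cannot be told apart.

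MHC class I presentation, which loads peptides from the proteasome onto surface molecules, gave 15 of 20 members with a lower response in MC38 and 0 with a higher one, with a median of −0.55. In CT26 13 members went up and 0 down, and in MC38 1 went up and 8 down. The median was −0.79 in libraries 1 to 3 and −0.47 in libraries 4 to 6. The immunoproteasome subunit Psmb8 (chromosome 17, 34197721–34201454, plus strand) ranged from 0.732 to 2.62 CPM in CT26 cells alone (median 1.78) and from 4.35 to 9.14 CPM with SIS ECM (median 5.36). In MC38 Psmb8 was at 119, 121, 126, 119 and 138 CPM without and 107, 108, 102, 94.8 and 101 CPM with SIS ECM. Neither line's groups overlapped, and they moved in opposite directions: the change was −0.28 in MC38 and 1.84 in CT26, a difference of −2.12 ± 0.17 (edgeR, adjusted p = 3.6e-09).

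Psmb9, the partner subunit, differed by −1.57 and Tap1, a chain of the peptide transporter, by −1.33. These genes overlap on opposite strands. Tap2, the other transporter chain, differed by −1.44 ± 0.17 (edgeR, adjusted p = 2.0e-06). Its MC38 levels were 34.7, 32.2, 29.97, 23.9 and 29.4 CPM without SIS ECM. With it they were 22.7, 20.2, 21.5, 23.4 and 20.9 CPM, with no overlap. The CT26 groups overlapped over all libraries but were apart within each number range. CT26 means went from 12.5 to 28.5 CPM in libraries 1 to 3 and from 7.91 to 13.2 CPM in libraries 4 to 6. The class I chains H2-K1 (−0.53) and H2-D1 (−0.57) and their partner B2m (−0.47) differed less. H2 genes are near-identical copies, so reads may be split between them. Calr and Pdia3, chaperones of the loading complex, did not pass.

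Nucleic acid sensors, which detect foreign or misplaced RNA and DNA, did not move one way: 4 of 16 had a higher and 5 a lower response in MC38, a median of −0.17. With the block 2 and 4 passed. The RNA sensors Dhx58 (−1.34), Zbp1 (−1.27) and Ifih1 (−0.80), which the interferon list also holds, were lower. Zbp1 rose in both lines, from 56.3 to 74.5 CPM in MC38 and from 1.176 to 3.68 CPM in CT26 (group means). Cgas, which senses cytosolic DNA, had a higher response in MC38 (0.40), since it fell in CT26 by 0.27 on the log2 scale.

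**Figure D2:**
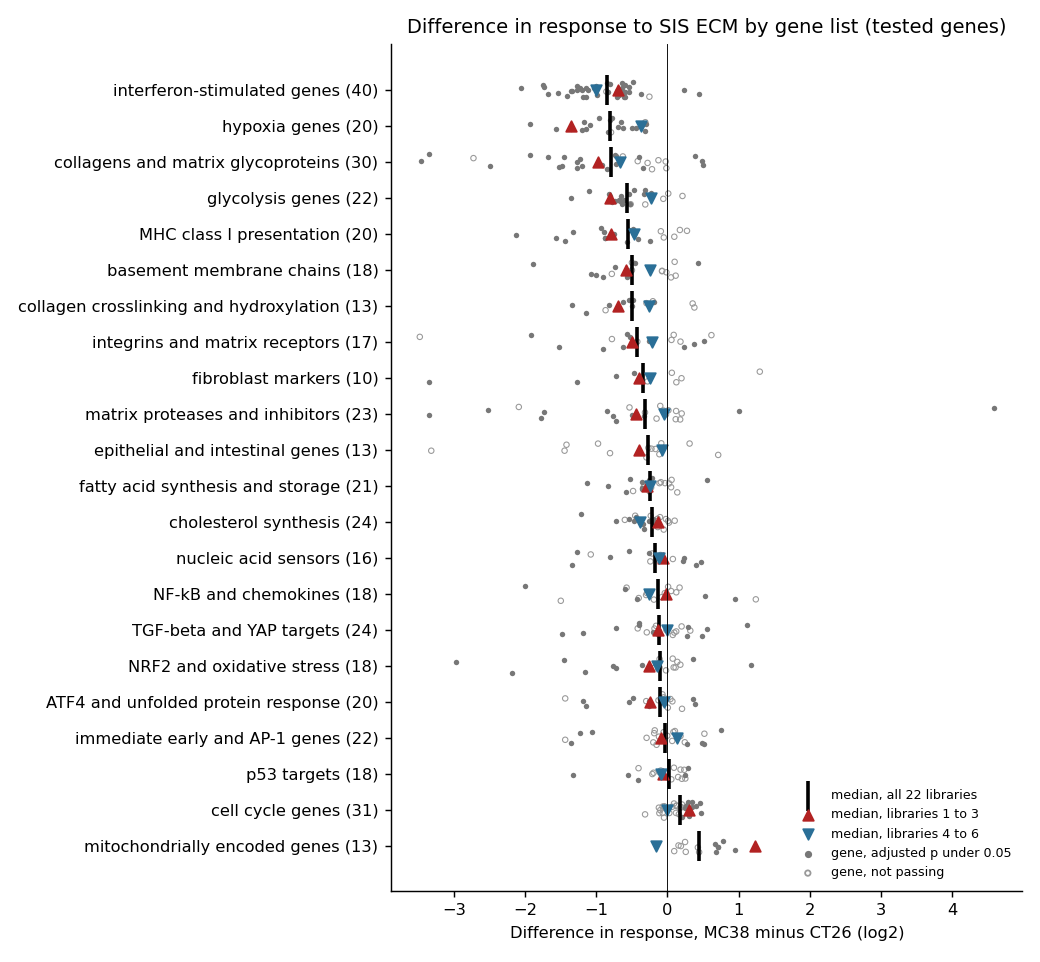
Difference in response (MC38 minus CT26, log2) for each tested member of each gene list with at least 3 tested members, the number in brackets being the members tested. Filled points passed an adjusted p of 0.05, black bars are list medians over all 22 libraries, and triangles are medians from libraries 1 to 3 (red) and 4 to 6 (blue). Over all 22 libraries interferon-stimulated genes have the lowest median (−0.85) and mitochondrially encoded genes the highest (0.44), and the triangles lie far apart for hypoxia and mitochondrially encoded genes. The protease point farthest right is Serpine2, which was at 0 counts in all CT26 libraries with SIS ECM.

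Genes for the matrix itself had a lower response in MC38. Of 34 collagens and matrix glycoproteins 30 were tested, 19 had a lower and 3 a higher response in MC38, and the median was −0.80 (−0.97 in libraries 1 to 3 and −0.67 in libraries 4 to 6). The own changes went apart: 18 fell and 4 rose in MC38 (median −0.42), and 13 rose and 4 fell in CT26 (median 0.33). Among the 20 members with at least 1 CPM in each line the median was −0.80, with 15 lower and 3 higher.

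Col1a1, the main chain of type I collagen (chromosome 11, 94936224–94953042, plus strand), fell in MC38. Its MC38 levels were 7.82, 7.88, 6.38, 6.97 and 8.43 CPM without and 1.14, 0.949, 0.540, 0.774 and 0.533 CPM with SIS ECM. In CT26 Col1a1 ranged from 18.5 to 32.4 CPM (median 22.01) without and from 16.1 to 35.5 CPM (median 22.6) with SIS ECM. The MC38 groups lay far apart and the CT26 groups overlapped, and the difference was −3.35 ± 0.28 (edgeR, adjusted p = 8.7e-09). Its partner chain Col1a2 did not pass, and MC38 had almost none of it (group means of 0.154 and 0.0940 CPM).

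Several matrix genes that were abundant in MC38 were nearly absent in CT26. Col6a2, a chain of microfibril-forming collagen VI, had 18469 to 28986 counts per library in MC38 cells alone and 12275 to 17368 with SIS ECM, but 0 to 3 and 1 to 10 in CT26. The adhesion-modulating glycoprotein tenascin C (Tnc) fell in MC38 from 147, 141, 143, 114 and 128 CPM to 85.8, 74.4, 55.9, 51.8 and 52.7 CPM, with no overlap. CT26 held 3 to 14 counts of Tnc per library without and 11 to 36 with SIS ECM. Its difference was −2.49 ± 0.26 (edgeR, adjusted p = 2.5e-07). For these genes the CT26 side of the difference rests on few counts, and for Col6a2 no fold is given.

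Col3a1, the fibrillar type III collagen, was measured well in both lines: it fell in MC38 from 2285 ± 459 to 1464 ± 492 CPM (SD, n = 5 each) and rose in CT26 from 12.8 ± 7.75 to 20.6 ± 10.2 CPM (SD, n = 6 each). Over all libraries the groups overlapped in both lines, with libraries 1 to 3 above libraries 4 to 6 in every group. Within each range they were apart in both lines. Its difference was −0.99 in libraries 1 to 3, −1.68 in libraries 4 to 6 and −1.27 ± 0.14 in all (edgeR, adjusted p = 1.0e-06). Collagen XII (Col12a1, −1.53, below 1 CPM in CT26) and the collagen-binding asporin (Aspn, −1.68) were also lower. The exceptions were the thrombospondin Thbs1 (0.49), the proteoglycan versican (Vcan, 0.39) and the matricellular Ccn1 (0.49), whose responses were higher in MC38. Vcan did not pass with the block (adjusted p = 0.070 in edgeR). Sparc, a collagen-binding glycoprotein, fell in both lines (−0.36 in MC38, −0.35 in CT26), and its difference of −0.02 did not pass (adjusted p = 0.91 in edgeR).

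Fibroblast markers share Col1a1, Col3a1 and Dcn with this list. Of 12 markers 10 were tested, 5 with a lower and 0 with a higher response in MC38. Their summed level was 4879 to 5381 CPM in MC38 cells alone and 3688 to 5104 CPM with SIS ECM, and 1798 to 2253 and 1435 to 2134 CPM in CT26. Thy1 was at 0 counts in all 4 groups, and the part of such cells in the matrix result was not tested. Smooth muscle markers had 0 of 8 members tested and summed to at most 0.856 CPM in any library. Endothelial markers summed to at most 6.01 CPM. One of them, Eng, passed (−1.17, adjusted p = 0.028 in edgeR), but not with the block (0.15) or in 4 of 22 fits without 1 library (those without CT26 cells-alone library 1, MC38 cells-alone library 5, CT26 SIS ECM library 1 or MC38 SIS ECM library 1).

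Basement membrane chains, which form the sheet under epithelia, had 7 lower and 1 higher of 18 tested, and a median of −0.50. With the block 5 and 0 passed. The collagen IV chains Col4a1 (−1.07 ± 0.14) and Col4a2 (−1.005 ± 0.17) fell in MC38 and rose in CT26 (edgeR, adjusted p = 7.3e-06 and 1.3e-04). They are transcribed in opposite directions from one promoter region and overlap. Lama3, an epithelial laminin chain, differed by −1.89 with 4 to 25 counts per MC38 library.

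Enzymes that hydroxylate and crosslink collagen gave 8 lower and 0 higher of 13 tested, a median of −0.49, with 5 lower under the block. The transglutaminase Tgm2 differed by −1.34 ± 0.16 through its rise in CT26 (1.12; edgeR, adjusted p = 1.9e-06 for the difference). The prolyl hydroxylase P4ha2 (−1.15) and the lysyl oxidase Loxl3 (−0.82) differed more in libraries 1 to 3 (−2.08 and −1.25) than in libraries 4 to 6 (−0.26 and −0.41).

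Matrix proteases and their inhibitors gave 9 lower and 2 higher of 23 tested, a median of −0.32 (−0.44 in libraries 1 to 3 and −0.05 in libraries 4 to 6). Among the 12 members with at least 1 CPM in each line 5 were lower and 0 higher, with a median of −0.24. Mmp13, a collagenase that cuts fibrillar collagen (chromosome 9, 7272514–7283331, plus strand), was raised by SIS ECM in both lines and far more in CT26. There it went from 5.29 to 12.7 CPM (median 7.23) without to 105 to 158 CPM (median 125) with SIS ECM. In MC38 the levels were 1.28, 1.26, 1.91, 1.68 and 1.46 CPM without and 4.63, 4.79, 4.08, 3.42 and 3.64 CPM with SIS ECM. No groups overlapped, the log2 changes were 4.01 in CT26 and 1.48 in MC38, and the difference was −2.53 ± 0.20 (edgeR, adjusted p = 3.6e-09).

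The stromelysins Mmp3 (−1.73) and Mmp10 (−1.77), whose windows are printed above with that of Mmp13, rose in both lines too. In MC38 they stood at 55.2 and 27.8 CPM without SIS ECM, and in CT26 at 0.254 and 0.225 CPM (group means). With SIS ECM the CT26 means were 1.23 and 1.05 CPM, so the large log2 change there spans low levels. The membrane-type protease Mmp14 rose in both lines (0.44 in MC38 and 0.46 in CT26), and its difference of −0.02 did not pass (adjusted p = 0.93 in edgeR). The aggrecanase Adamts5 had 1 count in all CT26 cells-alone libraries together and 13 with SIS ECM, and no fold is given. The protease inhibitor Serpine2 (protease nexin) was at 930 to 2178 counts per library in MC38. In CT26 it had 0, 0, 0, 7, 5 and 5 counts without SIS ECM and 0 in all 6 libraries with it, so its call rests on 17 counts in libraries 4 to 6. The inhibitor Timp3 had a higher response in MC38 (1.01, adjusted p = 0.013 in edgeR), with 1 to 19 counts per CT26 library.

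Receptors for matrix were split: 7 of 17 had a lower and 3 a higher response in MC38, with a median of −0.42. The laminin receptor chain Itgb4 differed by −1.92, with 3.07 to 4.25 CPM in MC38 cells alone and 0.771 to 1.64 CPM with SIS ECM, while CT26 libraries held 4 to 38 counts. The vitronectin receptor chain Itgb5 (−0.91) fell in MC38 and rose in CT26. Itga6, another laminin receptor chain (0.52), and the hyaluronan receptor Cd44 (0.37) fell in CT26, and Cd44 rose in MC38. Among the 12 members with at least 1 CPM in each line the median was −0.11.

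Hypoxia genes, the targets of the factor HIF, had 18 lower and 0 higher of 20 tested, a median of −0.80. In MC38 17 fell and 0 rose (median −0.64), while 12 went up and 0 down in CT26 (0.26). The size depended on the number range: the median was −1.35 in libraries 1 to 3 and −0.37 in libraries 4 to 6, and 15 of the 20 members differed between the ranges. Still, 18 members passed as lower in libraries 1 to 3 and 13 in libraries 4 to 6. The share of mitochondrially encoded counts also differed between the ranges, as given above, and its part in this was not tested.

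The endoplasmic oxidase Ero1l, which forms disulfide bonds in secreted proteins (chromosome 14, 45283087–45318771, minus strand), held 1167, 1250, 1344, 926 and 812 CPM in MC38 cells alone. With SIS ECM it held 475, 427, 524, 527 and 532 CPM. In CT26 Ero1l ranged from 1883 to 3073 CPM (median 2524) without and from 2487 to 5135 CPM (median 3421) with SIS ECM. The MC38 groups did not overlap. The CT26 groups overlapped over all libraries but were apart within each number range. Their means went from 3033 to 4479 CPM in libraries 1 to 3 and from 1980 to 2565 CPM in libraries 4 to 6. The difference was −1.56 ± 0.14 (edgeR, adjusted p = 1.8e-08), with −2.05 in libraries 1 to 3 and −1.097 in libraries 4 to 6.

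Ankrd37, an ankyrin repeat gene induced through HIF, held 46.6, 42.9, 45.1, 36.8 and 39.7 CPM in MC38 cells alone. With SIS ECM it held 7.44 and 5.96 CPM in libraries 1 and 3 but 26.1, 23.8 and 26.1 CPM in libraries 4, 5 and 6. CT26 ranged from 52.6 to 59.4 CPM (median 56.2) without and from 70.1 to 80.1 CPM (median 73.3) with SIS ECM. Neither line's groups overlapped, though the change in CT26 alone did not pass (adjusted p = 0.084), and the difference was −3.27 in libraries 1 to 3 and −0.91 in libraries 4 to 6 (−1.94 ± 0.29 overall; edgeR, adjusted p = 3.8e-05). It overlaps Ufsp2 and Lrp2bp on the other strand. The glucose transporter Slc2a1 was split in the same way, with 42.0 and 40.1 CPM in MC38 SIS ECM libraries 1 and 3 and 79.5, 81.8 and 77.6 CPM in libraries 4, 5 and 6, against 103 to 136 CPM in cells alone. The carbonic anhydrase Car9 (−1.09), the stress gene Ddit4 (−1.20) and Ndrg1 (−1.17) were lower overall. The growth factor Vegfa differed by −1.53 in libraries 1 to 3 and −0.06 in libraries 4 to 6.

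Glycolytic genes went with them. Of 22 tested 17 were lower and 0 higher, with a median of −0.57, and with the block 11 were lower. The list shares Slc2a1, Slc16a3 and Pdk1 with the hypoxia genes, and its medians were −0.81 in libraries 1 to 3 and −0.24 in libraries 4 to 6. Hexokinase Hk2, the entry enzyme, carried its difference in libraries 1 to 3 (−2.17; −0.13 in libraries 4 to 6, adjusted p = 0.28 in edgeR). There MC38 went from 83.7, 77.1 and 73.5 CPM to 21.1 and 21.2 CPM. In the later libraries it went from 50.2 and 52.5 CPM to 47.6, 48.5 and 47.2 CPM. Phosphoglycerate kinase Pgk1 (−0.61) differed by nearly the same amount in both ranges (−0.60 and −0.64).

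**Figure D3:**
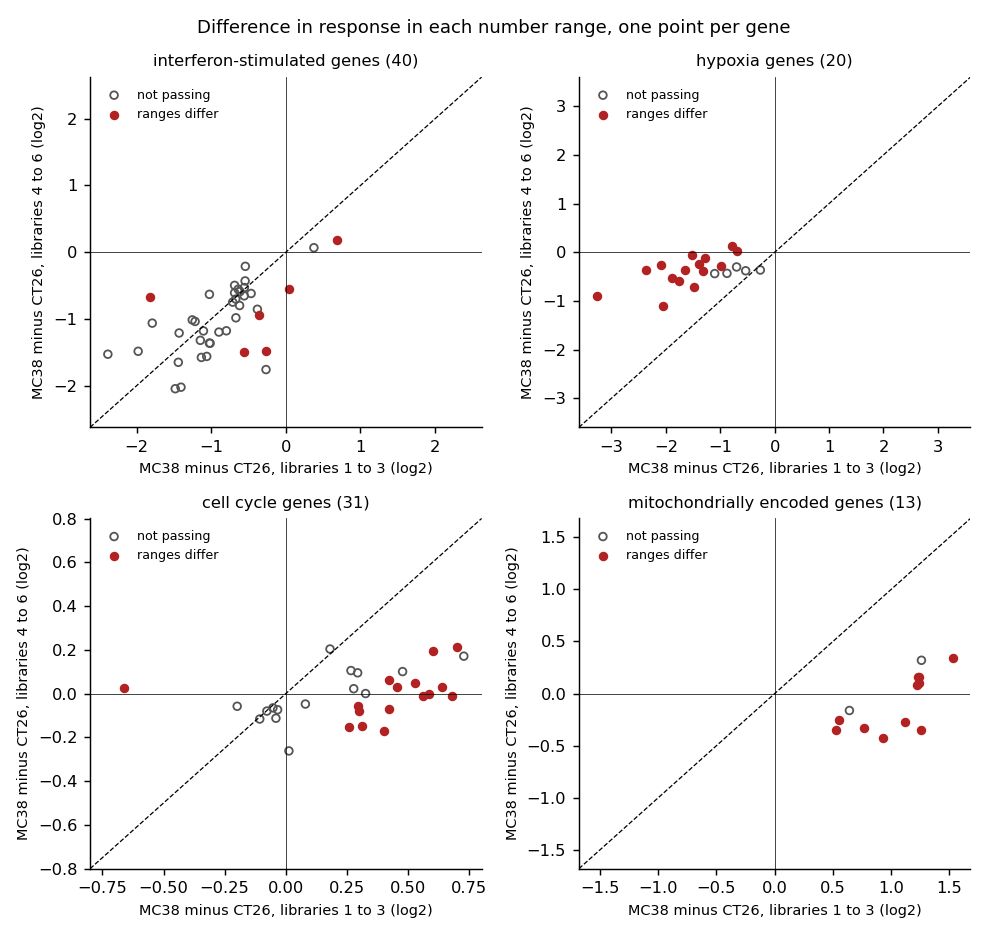
Difference in response (MC38 minus CT26, log2) in libraries 1 to 3 (horizontal axis) and in libraries 4 to 6 (vertical axis), one point per tested member of 4 lists. Filled points are genes whose difference varied between the ranges (adjusted p under 0.05), and the dashed line marks equal values. Interferon-stimulated genes lie along the line with 6 filled points, hypoxia genes other than Bnip3l lie above it, with 15 filled points. In libraries 4 to 6 cell cycle genes lie between −0.26 and 0.21 and mitochondrially encoded genes between −0.43 and 0.34.

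Sterol and fatty acid synthesis differed less. Of 24 cholesterol synthesis genes tested, 21 fell and 0 rose in MC38 (median −0.39), and 9 fell and 2 rose in CT26 (−0.13). For the difference 11 were lower and 0 higher, with a median of −0.22, and 7 were lower with the block. It was larger in libraries 4 to 6 (−0.38, 16 lower) than in libraries 1 to 3 (−0.14, 5 lower and 1 higher). The decarboxylase Mvd of the mevalonate pathway went from 22.7, 21.9, 21.1, 15.2 and 22.7 CPM to 12.5, 9.62, 10.1, 10.6 and 9.55 CPM in MC38. In CT26 Mvd ranged from 5.77 to 12.0 CPM (median 6.39) without and from 5.05 to 15.2 CPM (median 6.63) with SIS ECM. The MC38 groups were apart, the CT26 groups overlapped, and the difference was −1.22 ± 0.24 (edgeR, adjusted p = 5.7e-04).

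Fatty acid synthesis and storage genes had 9 lower and 1 higher of 21 tested, a median of −0.25. The lipid droplet coat Plin2 rose in CT26, from between 43.8 and 47.6 CPM to between 68.2 and 83.2 CPM, and in MC38 the groups overlapped (157, 164, 172, 139 and 146 CPM, then 157, 173, 122, 111 and 116 CPM). Its difference was −0.84 ± 0.08 (edgeR, adjusted p = 1.3e-07). The elongase Elovl6 (0.55) was the exception, falling in CT26.

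Stress response lists had medians near 0, with single members far from it. Among 18 tested NRF2 and oxidative stress genes 7 were lower, against 13.8% of all genes tested, and 2 higher (1 higher with the block), with a median of −0.11. Heme oxygenase Hmox1 (chromosome 8, 75093621–75100589, plus strand) was at 175, 196, 206, 93.5 and 107 CPM in MC38 cells alone and at 56.7, 56.8, 42.9, 42.1 and 42.5 CPM with SIS ECM. In CT26 Hmox1 ranged from 31.6 to 55.9 CPM (median 48.0) without and from 54.6 to 106 CPM (median 70.1) with SIS ECM. It fell in MC38 and rose in CT26, a difference of −2.18 ± 0.21 (edgeR, adjusted p = 5.9e-08) that was larger in libraries 1 to 3 (−2.96) than in libraries 4 to 6 (−1.40).

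Aldh3a1, an aldehyde dehydrogenase, started alike in both lines. CT26 held 0.836 to 2.30 CPM (median 1.38) of it without and 5.71 to 16.5 CPM (median 10.0) with SIS ECM. MC38 held 1.36, 1.51, 1.87, 1.29 and 1.26 CPM without and 1.68, 1.42, 1.20, 0.956 and 0.727 CPM with it. Only the CT26 groups were apart, and the difference was −2.97 ± 0.29 (edgeR, adjusted p = 6.8e-08). The ferritin chains Ftl1 (−1.16) and Fth1 (−0.36), which store iron, were lower too. Going the other way, the quinone reductase Nqo1 fell in CT26 from between 2.63 and 3.97 CPM to between 0.902 and 1.90 CPM. In MC38 its groups overlapped, at 41.7, 45.7, 50.1, 52.2 and 52.3 CPM and 40.2, 46.4, 41.7, 39.9 and 41.8 CPM. The difference for Nqo1 was 1.175 ± 0.17 (edgeR, adjusted p = 2.2e-05).

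The ATF4 and unfolded protein response list had 7 lower and 2 higher of 20 (3 and 1 with the block) and a median of −0.11. The pseudokinase Trib3 (−1.19 ± 0.14) and the factor Ddit3 (−1.15 ± 0.16) fell in MC38 and rose in CT26 (edgeR, adjusted p = 1.0e-06 and 2.0e-05). Of 18 p53 targets 3 were lower and 2 higher (3 and 0 with the block), shares near those of all genes tested. The cell cycle inhibitor Cdkn1a (−0.56) fell in MC38 and did not pass in CT26.

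Cell cycle genes had 12 higher and 0 lower of 31, with a median of 0.17. In CT26 15 fell and 0 rose, and in MC38 2 fell and 0 rose. This rested on libraries 1 to 3, where the median was 0.30 and 19 members were higher, while in libraries 4 to 6 the median was −0.01, with 0 higher and 1 lower. With the block 3 passed, and 16 of the 31 differed between the ranges. The mitotic kinesin Kif11 gave the largest difference (0.47 ± 0.09; edgeR, adjusted p = 5.3e-04). In CT26 it ranged from 260 to 288 CPM (median 273) without and from 168 to 247 CPM (median 206) with SIS ECM. The 5 MC38 libraries of each group lay between 203 and 244 CPM.

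The 13 mitochondrially encoded genes, subunits of the respiratory chain, had the widest gap between range medians among lists with at least 3 tested members. Over all libraries 6 were higher and 0 lower, with a median of 0.44. In libraries 1 to 3 all 13 were higher (median 1.22), in libraries 4 to 6 0 passed in either direction (−0.16), and 11 differed between the ranges. For mt-Nd2, a complex I subunit, MC38 held 1267, 1384, 1398, 3135 and 2286 CPM without and 2422, 2319, 3012, 2702 and 2711 CPM with SIS ECM. CT26 averaged 3821 CPM in libraries 1 to 3 without and 2307 CPM with SIS ECM. In libraries 4 to 6 it averaged 7822 and 6375 CPM. Over all libraries the groups overlapped in both lines. Within the ranges they were apart, except in MC38 libraries 4 to 6. The difference for mt-Nd2 was 1.53 in libraries 1 to 3 and 0.34 in libraries 4 to 6 (adjusted p = 0.11 in edgeR).

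Early response and NF-kB genes passed in shares near those of all genes tested (12.7% higher and 13.8% lower). Immediate early genes had 4 higher and 3 lower of 22. The AP-1 factor Junb (−1.35), the survival gene Ier3 (−1.23) and the small Maf factor Maff (−1.06) fell in MC38. Their differences were −2.16, −2.0 and −1.72 in libraries 1 to 3 and −0.43, −0.51 and −0.52 in libraries 4 to 6. The zinc finger factor Egr3 (0.75) fell in CT26. Among 18 tested NF-kB and chemokine genes 2 were higher and 3 lower. Prostaglandin synthase Ptgs2 ranged from 899 to 1368 CPM in CT26 cells alone (median 1078) and from 497 to 771 CPM with SIS ECM (median 579). In MC38 it lay between 25.6 and 42.5 CPM in all 10 libraries. Its difference was 0.95 ± 0.11 (edgeR, adjusted p = 1.5e-06). The chemokine Ccl5 (−1.998, adjusted p = 0.0068 in edgeR) rested on 0 to 11 counts per CT26 library.

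TGF-beta and YAP genes had 5 higher and 6 lower of 24 (4 and 2 with the block). The latent TGF-beta binding protein Ltbp2 differed by −1.49 ± 0.20 (edgeR, adjusted p = 1.1e-05). The YAP partner Tead1 (0.55) fell in CT26. Tgfb2 (1.12) and Smad6 (−1.19) passed with adjusted p = 0.028 and 0.045 in edgeR. In libraries 1 to 3 and 4 to 6 the differences were 2.01 and 0.018 for Tgfb2, and −0.30 and −2.74 for Smad6. CT26 libraries held 3 to 15 counts of Tgfb2 and 1 to 15 of Smad6. Tgfb2 lost its call without CT26 cells-alone library 2, CT26 SIS ECM library 1 or CT26 SIS ECM library 2, and Smad6 lost it with the block (0.13) and in 15 of 22 fits without 1 library.

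The better expressed genes (mean log2 CPM not under 2) were ranked with predicted and clone-named genes left out. Of their 10 lowest differences with the same sign in both ranges, 4 belonged to genes in none of the lists. All 4 rose in CT26 from a low level. Cask, a membrane scaffold kinase on the X chromosome (13517080–13851367, minus strand), ranged from 0.772 to 2.25 CPM in CT26 cells alone (median 1.44) and from 5.97 to 12.6 CPM with SIS ECM (median 7.97). In MC38 it was at 50.1, 46.7, 47.8, 39.8 and 39.9 CPM without and 47.5, 49.4, 42.4, 45.1 and 40.4 CPM with SIS ECM. Only the CT26 groups were apart, and the difference was −2.53 ± 0.12 (edgeR, adjusted p = 8.1e-13). It was −2.45 in libraries 1 to 3 and −2.76 in libraries 4 to 6.

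The guanine nucleotide exchange factor Arhgef5 followed the same course (−3.05 ± 0.21; edgeR, adjusted p = 2.7e-10), from between 0.302 and 0.963 CPM to between 4.14 and 5.71 CPM in CT26. In MC38 it lay at 18.4 to 23.3 CPM without and 16.9 to 21.99 CPM with SIS ECM. The lysosomal cofactor Gm2a (−2.11 ± 0.21) and the interleukin receptor chain Il13ra1 (−2.29 ± 0.27) were alike (edgeR, adjusted p = 1.3e-07 and 1.4e-06). Il13ra1 had 2 to 4 and 10 to 20 counts per CT26 library.

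**Figure D4:**
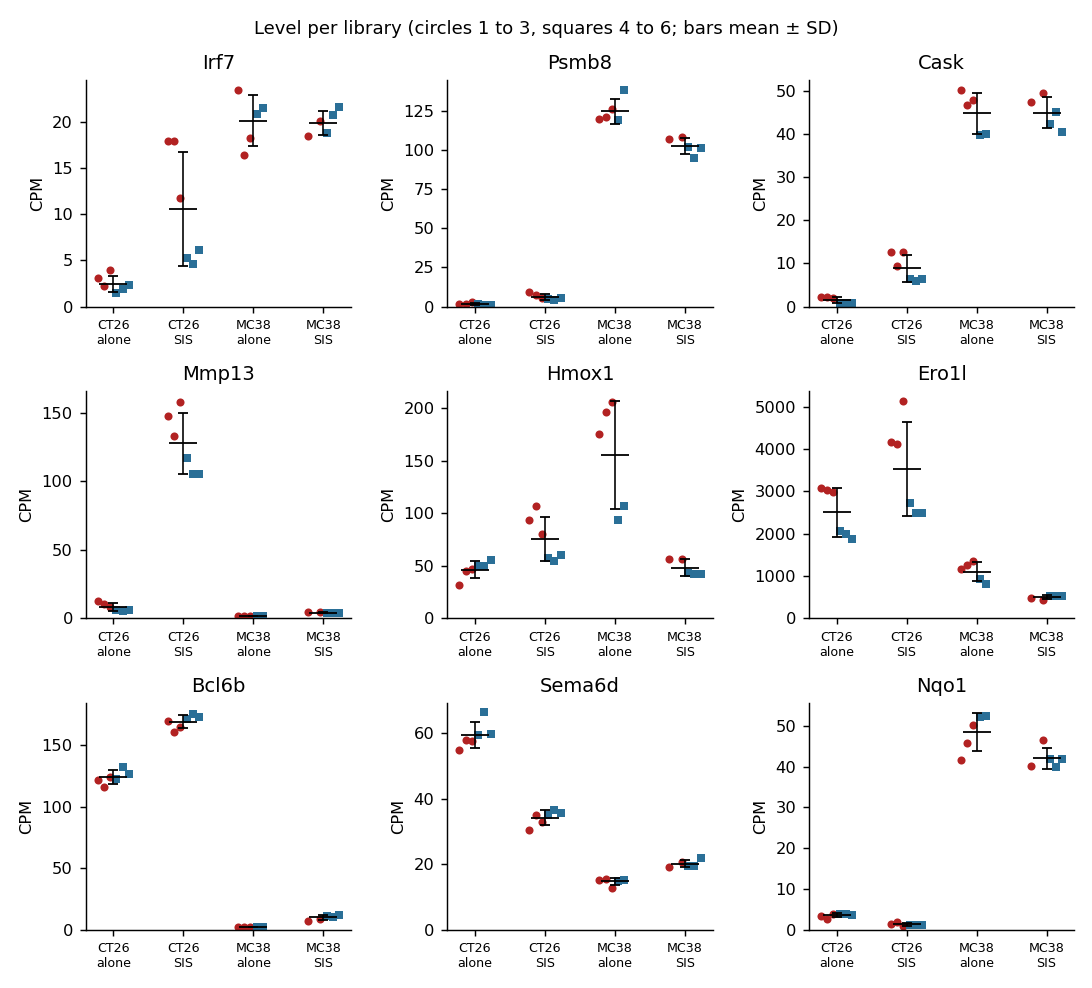
Level in CPM of 9 genes in each library, for CT26 and MC38 cells alone and with SIS ECM. Circles are libraries 1 to 3, squares libraries 4 to 6, and bars the mean ± SD (n = 6 in each CT26 group, n = 5 in each MC38 group). Irf7, Psmb8 and Cask rise in CT26 from levels far below those of MC38, Hmox1 and Ero1l fall in MC38, and Bcl6b rises in both lines.

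The highest difference among such genes with the same sign in both ranges was that of Bcl6b, a transcriptional repressor (chromosome 11, 70224128–70229798, minus strand). MC38 held 2.04, 2.56, 2.05, 2.37 and 2.60 CPM without and 7.32, 8.80, 11.6, 10.7 and 11.6 CPM with SIS ECM. CT26 held 116 to 132 CPM (median 124) without and 161 to 176 CPM (median 171) with SIS ECM. It rose in both lines with no overlap, by 2.02 and 0.45 on the log2 scale, and the difference was 1.57 ± 0.09 (edgeR, adjusted p = 3.7e-11).

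Sema6d, a transmembrane guidance cue (chromosome 2, 124089969–124667770, plus strand), moved in opposite directions without overlap in either line. MC38 went from 15.3, 15.6, 12.8, 15.0 and 15.1 CPM to 19.3, 20.7, 19.5, 19.5 and 21.9 CPM. CT26 went from between 54.7 and 66.5 CPM (median 58.6) to between 30.5 and 36.5 CPM (median 35.0). Its difference was 1.24 ± 0.08 (edgeR, adjusted p = 2.0e-10), with 1.23 in libraries 1 to 3 and 1.22 in libraries 4 to 6. The oncostatin M receptor Osmr (1.14) rose in MC38 from between 46.4 and 53.4 CPM to between 67.0 and 76.8 CPM, while in CT26 it fell from 1.65 ± 0.58 to 1.105 ± 0.35 CPM (SD, n = 6), with overlap.

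The retinol dehydrogenase Dhrs9 (1.03) likewise rose in MC38 and fell in CT26 without overlap. The receptor Calcrl (1.09), which binds adrenomedullin with a partner protein, had overlapping groups in MC38 and dropped in CT26 from 12.5 ± 1.63 to 6.26 ± 1.55 CPM (SD, n = 6). Sema7a (1.20) fell in CT26, with 7 to 31 counts per library there. Nipal1 (1.34), a putative magnesium transporter, fell in CT26 from 24.99 ± 1.97 to 13.6 ± 1.97 CPM (SD, n = 6) and had 9 to 30 counts per MC38 library. Rps13-ps2 (1.17) is a pseudogene whose reads may belong to its parent gene.

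Apart from predicted and clone-named genes, 2 changed by at least 2-fold in one direction in both lines with a difference that did not pass. Genes whose difference passed are not among them, such as Mmp13, which rose by 1.48 in MC38 and 4.01 in CT26 (log2). The sialyltransferase St3gal4 rose in MC38 from between 64.8 and 83.0 CPM to between 140 and 155 CPM, and in CT26 from between 22.2 and 27.5 CPM to between 45.8 and 62.2 CPM. Its difference was −0.11 with a 95% interval of −0.28 to 0.07. The homeobox gene Dlx2 had 10 counts in all CT26 cells-alone libraries together and 1 with SIS ECM, so its fold is not given.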

How the data were processed

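RNA of 22 mouse spheroid libraries was analysed. The authors deposited expected counts per gene (GENCODE vM21 identifiers, build mm10 per the submitters' processing notes), with 2244 to 2621 values per library not whole, and these were rounded. Those notes also list, with no roles, RSEM 1.3.1, limma, STAR 2.7.0f and cutadapt 1.18. Library totals were 15826190 to 24196115, and 0 pairs of libraries were identical.

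Genes were filtered with filterByExpr (minimum count 10), scaled by TMM and fitted with edgeR 4.0.16 (R 4.3.3) to 4 group means and a term for number range within each line. The two-sided quasi-likelihood test was adjusted by Benjamini-Hochberg over all 14080 genes (threshold 0.05). The fit was also run on counts simulated from its own means and spreads, which cannot test the assumptions of the fit. Levels are CPM scaled by TMM. A difference divided by its test statistic's root gives its SE. Named genes were those with the 10 highest and 10 lowest differences (mean log2 CPM of at least 2, same sign in both ranges), 4 per direction with opposite own changes, up to 3 per list, and up to 4 shared changes. Predicted and clone-named genes were left out of this choice. Other members named are examples chosen after their values were seen. Some members that the counts include are not reported here by name. Members and lists were chosen with earlier results of these data known. Alternatives used limma 3.58.1, DESeq2 1.42.0, other filters, ranges, a replicate block and leaving out each library.

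Same-numbered libraries deviated together from their group means (correlations of 0.178 to 0.351 over 6 pairs in CT26 and 0.153 to 0.273 over 4 pairs in MC38). The pairing comes from the numbers in the labels. Once range means were also removed, the correlations were −0.272 to 0.0327 and −0.0357 to −0.00822.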

Additional observations from a re-analysis of the deposited data

Results flagged for a closer look

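The response differed between the lines in 3740 genes by the test of the difference itself, and that difference varied between libraries 1 to 3 and 4 to 6 in 2268 genes by the same kind of test.

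Among 319 groups of 5 or 6 libraries of named genes, 14 held a library far from the others. Chance flags about 5% of such groups. In CT26 cells alone, library 3 was the highest for Col1a1 (32.4 CPM, group median 22.01), Slc2a1 (114.2 CPM, median 89.0), Mvd (12.02 CPM, median 6.39) and Acacb (2.918 CPM, median 2.02). Library 4 of that group was the highest for Col6a2 (0.1946 CPM) and Adamts5 (0.06487 CPM), whose group medians were 0. In CT26 with SIS ECM, library 1 was the highest for Arhgef5 (5.711 CPM, median 4.49) and library 2 for Dlx2 (0.0464 CPM, median 0).

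In MC38 cells alone, library 3 was the lowest for Sema6d (12.8 CPM, median 15.1). Library 4 was the lowest for Mvd (15.18 CPM, median 21.9) and the highest for P4ha2 (175.8 CPM, median 156.7). In MC38 with SIS ECM, library 3 was the highest for Nqo1 (46.39 CPM, median 41.7) and the lowest for Osmr (67.01 CPM, median 74.1), and library 1 was the highest for Ltbp2 (2.145 CPM, median 1.21).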

How the results depend on the processing

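The count of genes whose response differed (3740) was 1165 (404 higher and 761 lower in MC38) with no term for number range, 2001 (824 and 1177) in libraries 4 to 6 only, and 1772 (739 and 1033) with the replicate block, the fit that pairs same-numbered libraries. It was 4112 in libraries 1 to 3 only, 3905 with DESeq2, 3848 with limma-voom, 3705 with RLE size factors and 2884 to 4480 without 1 library. At least 2-fold differences (504) numbered 806 in libraries 1 to 3, 266 in libraries 4 to 6 and 219 with a mean of at least 1 CPM in each line, the last chosen after seeing the data. The cause of these shifts was not tested.

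Medians in libraries 1 to 3 only were −0.70 for interferon-stimulated genes, −0.79 for MHC class I presentation, −0.056 for nucleic acid sensors, −0.97 for collagens and matrix glycoproteins, −0.44 for matrix proteases and inhibitors, −0.70 for collagen crosslinking and hydroxylation, −1.35 for hypoxia genes, −0.81 for glycolysis genes, −0.14 for cholesterol synthesis, −0.24 for ATF4 and unfolded protein response, −0.26 for NRF2 and oxidative stress, −0.061 for p53 targets, 0.30 for cell cycle genes, −0.027 for NF-kB and chemokines, 1.22 for mitochondrially encoded genes and −0.395 for epithelial and intestinal genes.

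In libraries 4 to 6 only they were −0.998 for interferon-stimulated genes, −0.47 for MHC class I presentation, −0.67 for collagens and matrix glycoproteins, −0.24 for basement membrane chains, −0.051 for matrix proteases and inhibitors, −0.26 for collagen crosslinking and hydroxylation, −0.21 for integrins and matrix receptors, −0.37 for hypoxia genes, −0.24 for glycolysis genes, −0.38 for cholesterol synthesis, −0.045 for ATF4 and unfolded protein response, −0.086 for p53 targets, 0.13 for immediate early and AP-1 genes, −0.25 for NF-kB and chemokines, −0.010 for TGF-beta and YAP targets and −0.083 for epithelial and intestinal genes. There 4 medians had the opposite sign to that over all libraries: cell cycle genes (−0.011, against 0.17), mitochondrially encoded genes (−0.16, against 0.44), p53 targets (0.021 over all libraries) and immediate early and AP-1 genes (−0.028 over all). The median of p53 targets was also below 0 in libraries 1 to 3.

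With limma-voom the median was −0.080 for nucleic acid sensors and −0.14 for matrix proteases and inhibitors. With no range term it was −0.94 for collagens and matrix glycoproteins, −0.31 for fatty acid synthesis and storage and 0.067 for p53 targets. With a mean of at least 1 CPM it was 0.055 for p53 targets, and with that mean in each line 0.070 for them, −0.11 for integrins and matrix receptors, −0.12 for epithelial and intestinal genes and −0.47 for fibroblast markers. With the replicate block it was −0.065 for TGF-beta and YAP targets and −0.17 for fibroblast markers, which was −0.19 without the 2 MC38 libraries that have no partner.

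Leaving out each library in turn moved medians between −0.96 and −0.80 for interferon-stimulated genes, −0.22 and −0.092 for nucleic acid sensors, −0.39 and −0.17 for matrix proteases and inhibitors, −0.52 and −0.34 for integrins and matrix receptors, −0.31 and −0.22 for fatty acid synthesis and storage, −0.18 and −0.046 for ATF4 and unfolded protein response, −0.012 and 0.096 for p53 targets, −0.22 and −0.12 for NF-kB and chemokines, −0.13 and −0.062 for TGF-beta and YAP targets, and −0.43 and −0.17 for fibroblast markers. Serpine2 reversed in libraries 1 to 3 (−0.017), where CT26 had 0 counts. Of the 80 named genes, 25 changed side of the threshold in libraries 4 to 6, 17 with no range term and 4 with the replicate block. Genes with few counts in a line limit the precision of their fold changes.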

Other observations

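Some gene families in none of the lists, chosen after their values were seen, also held members whose responses differed between the lines. Of all genes tested, 12.7% were higher and 13.8% lower in MC38. Cytosolic ribosomal proteins, the protein part of the ribosome, had 51 lower and 1 higher response in MC38 of 84 tested, with a median difference of −0.31 (−0.21 in libraries 1 to 3 and −0.41 in libraries 4 to 6). With the replicate block 29 were lower and 1 higher. Ribosomal protein genes have many processed copies, so reads may be split between them. Zinc finger genes named Zfp, most of which encode DNA-binding repressors, went the other way: 91 of 349 were higher and 15 lower, with a median of 0.17 and 40 and 6 with the block.

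Guanylate binding proteins, interferon-induced GTPases, had 8 lower and 0 higher of 10 tested, a median of −1.01, and 8 lower with the block. Gbp2 and Gbp3 are also on the interferon list. Semaphorins, the guidance cues that include Sema6d, had 5 higher and 0 lower of 16, and 3 and 0 with the block. Their median was near 0, at 0.028 (−0.035 in libraries 1 to 3 and 0.13 in libraries 4 to 6).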
